A study of Macaca fascicularis with 10 samples.

Results

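Transcription factors of the SOX, forkhead, nuclear receptor, POU, PAX, GATA, RFX, KLF, E2F, TEAD, CREB and related families, outside the ZNF zinc finger genes, were examined for how evenly the 2 parental alleles were read. They were chosen by gene name alone, as rows of the deposited count table whose symbol begins with 1 of the family stems, with TCF4 left out, which gave 84 of 7229 rows. The name rule uses no measured value, though members were chosen with earlier results of these data known. The samples are RNA of the dorsal raphe nucleus, the largest serotonin cell group of the brainstem, from 10 females of the cynomolgus macaque (Macaca fascicularis), with mother and father labelled for each daughter. The labels give 1 group, with no treatment, strain or age. For each daughter the table holds 1 maternal and 1 paternal count per gene, and the paternal share of a gene is its paternal count as a percent of both counts. Daughters are called D1 to D10, following their labels. The labels give each daughter as a sample of her own, and p-values of the comparisons across daughters measure the spread between these animals.

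Transcription factors bind regulatory DNA and set which genes a cell transcribes, and many are needed in 2 working copies, so that the loss of 1 copy is felt. In serotonin neurons LMX1B and GATA3 help to set up and keep the transmitter identity, SOX10 marks cells of the oligodendrocyte lineage, and RFX factors with FOXJ1 switch on genes of cilia. Most autosomal genes are read from both parental copies. In females 1 of the 2 X chromosomes is silenced in each cell, so an X-linked gene in bulk tissue can lean to the copy that is active in more cells.

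Members were thinly covered. The table holds 30090 (D1) to 999471 (D6) allelic reads for a daughter, of which members took 35 to 1631. A measurement is 1 gene in 1 daughter with 10 or more allelic reads. Of the 84 members, 55 were measured in at least 1 daughter, 26 in 3 or more and 17 in 5 or more, with at most 9 daughters for any member. The remaining 29 never reached 10 reads, among them LMX1B with 9 reads in all, PAX8, KLF11, TCF7L1, ATF3, NR4A1, NR4A2, EGR2, HOXA2, PAX2, GATA4, GATA6 and E2F1. A low number of reads can mean few informative positions as well as little RNA, so levels are not compared here. In bulk tissue, fewer cells of a type and less RNA per cell cannot be told apart. The 173 measurements of members had a median of 33 reads, against 54 over 27887 measurements of all genes. The serotonin neuron genes TPH2, SLC18A2 and SLC6A4 were read in 7, 3 and 2 daughters, with 9561, 743 and 423 reads. FEV and GATA2, also genes of serotonin neurons, had no row in the count table.

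The family names hold for 74 of the 84 members. The other 10 share only a stem with a transcription factor. They are TCF25, which acts in ribosome quality control, FOXRED1 and FOXRED2, which are flavoproteins of mitochondrial complex I assembly and of protein quality control in the endoplasmic reticulum, MEF2BNB, a subunit of a lysosome positioning complex, TBXAS1, the thromboxane synthase, and the partner or cofactor genes RFXANK, RUNX1T1, POU2AF1, NR2C2AP and ATF7IP2. These 10 are described with the rest but are named as such, since 2 of the 3 most unequal measurements were theirs.

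Most transcription factor measurements lay near balance, as did those of all genes. Of 173 measurements of members, 114 (65.9%) lay between 40% and 60% paternal, against 69.8% over all genes. The 95% Wilson interval left out 50% in 21 (12.1%), against 20.1% over all genes. Of these, 10 (5.78%, against 9.5%) lay on the paternal and 11 (6.36%, against 10.6%) on the maternal side. At least 90% of reads fell on 1 allele in 3 (1.73%), against 1.87%. Intervals narrow with depth, so measurements were also compared within classes of read number. With 10 to 49 reads members had a median of 22 reads, against 23 over all genes. With 50 or more reads they had 90 against 122, so the upper class is not matched for depth. With 10 to 49 reads, 12 of 117 measurements of members (10.3%) were unequal by that interval, against 14.3% over all genes, and with 50 or more reads 9 of 56 (16.1%), against 25.3%. At these depths 55.6% and 87.5% of members' measurements lay between 40% and 60%, against 56.8% and 81.5%. Without the 10 genes matched by name only, 14 of 139 (10.1%) were unequal and 1 lay beyond 90%. Among ZNF genes 102 of 561 measurements (18.2%) were unequal. These percentages are descriptions. Intervals cover counting error only, since reads of a library are not independent molecules.

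**Figure D1:**
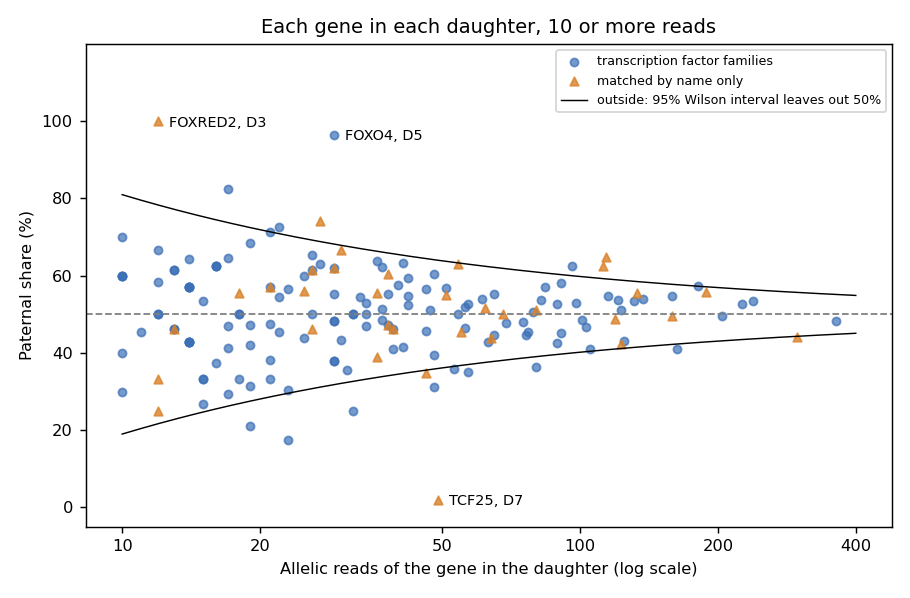
Paternal share (%) of each member in each daughter against its allelic reads (log scale), 173 measurements. Points outside the curves have a 95% Wilson interval that leaves out 50%, which holds for 21 of them, and the 3 labelled points have 90% or more of reads on 1 allele.

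An exact binomial test of each measurement, with Benjamini-Hochberg adjustment over all 27887, called 5 of the 173 measurements, 2.89% against 8.57% over all genes. These 2 percentages are not at like read numbers, since members had a median of 33 reads against 54 over all genes. The measurements of members called are listed next. The 5 called were TCF25 in D7 (adjusted p = 1.23e-11, exact binomial), FOXO4 in D5 (4.18e-06) and D10 (0.0332), FOXRED2 in D3 (0.00839) and RFXANK in D5 (0.0256). The test compares the 2 alleles in 1 library and says nothing of other animals.

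Across daughters none of the 17 members tested leaned to the same parent beyond the spread between animals. The other members, NR3C2 and FOXO4 among them, reached 10 reads in too few daughters to be tested. With edgeR's quasi-likelihood test, the animal as block, 0 of the 17 members tested differed between the parental columns at an adjusted p of 0.05, beside 0 of 2981 genes (0%). At an unadjusted p under 0.05 there were 0 of the 17 with edgeR, beside 93 of 2981 genes. With DESeq2 there were also 0 of the 17, beside 62 of 2981 genes. The smallest p belonged to RFXANK, with a paternal over maternal difference of log2 0.34 ± 0.21 (SE), and RFX2, with -0.42 ± 0.29 (edgeR adjusted p = 1 for both). Among 21 members measured in 4 or more daughters, only NR3C2 lay on 1 side in all of them, the paternal side, where 1.54% of all such genes did. None lay on the maternal side in all of them, where 1.97% of such genes did. The median over 26 members of the mean share was 51.5%, against 49.8% over 4331 genes.

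Members varied in how far the daughters differed beyond counting. The variance between daughters was divided by the variance expected from counting reads, so that 1 means no more than counting. The median of this ratio was 1.11 over 26 members with 3 or more daughters, against 1.60 over all genes and 1.67 over 99 ZNF genes. These medians are not at like read numbers, since measurements of members had a median of 33 reads against 54 over all genes. With 20 or more reads the ratios were 1.26 and 1.76, and with 50 or more 1.08 and 2.07, for members and all genes. At 10 or more reads the ratio was under 1 in 12 of the 26, where 31.9% of all genes were. It was 2 or more in 10 of the 26, where 40.7% of all genes were. The highest ratios belonged to FOXO4 (12.5), TCF25 (10.3), FOXRED2 (4.35) and ESRRA (4.21). The plot of shares by daughter shows ATF6 with the narrowest spread and FOXRED2, ESRRA, TCF25 and RFX2 with the widest.

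**Figure D2:**
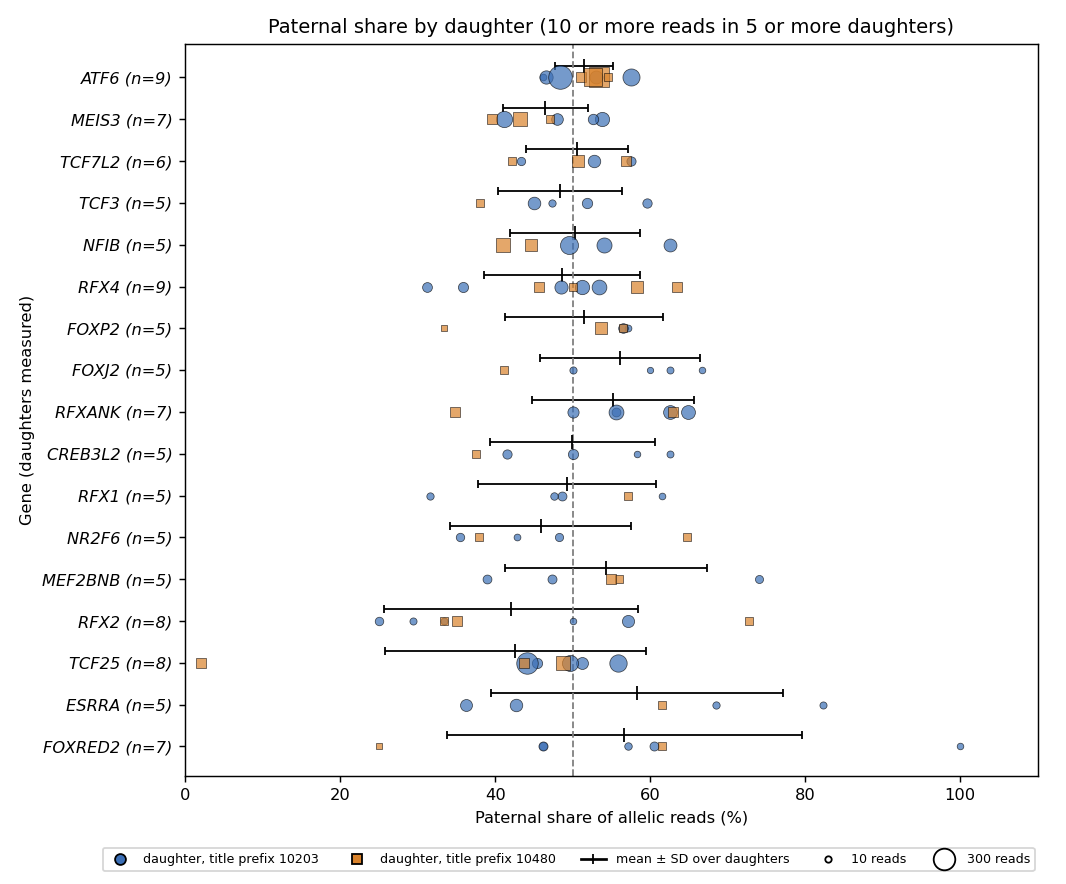
Paternal share (%) in each daughter for the 17 members measured in at least 5 daughters, ordered by SD. Point area grows with reads, shape gives the title prefix, and bars are mean ± SD over daughters. ATF6 stays between 46.2% and 57.5%, whereas TCF25 has 1 daughter at 2.04% and FOXRED2 1 at 100%.

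ATF6, a membrane-bound sensor of unfolded protein in the endoplasmic reticulum, was the most deeply read member, with 1301 reads, and had the smallest SD of the 26 members with 3 or more daughters. Its paternal share was 46.2% of 13 reads in D1, 57.5% of 181 in D2, 53.1% in D3, 46.6% in D5, 48.3% of 362 in D6, 53.4% in D7, 51.1% in D8, 54.5% in D9 and 52.7% in D10. The mean was 51.5% ± 3.79 (SD, n = 9), with a variance ratio of 0.313. Daughter 2 was the highest, and her interval (50.2 to 64.4) just left out 50%. The related CREB3L2, another factor released from that membrane, had 49.96% ± 10.7 (SD, n = 5). ATF1, a partner of CREB1 in the response to cyclic AMP, had 55.3%, 48.3% and 41.0% in D2, D5 and D9. FOS, the activity-induced factor, was measured in D6 alone, with 54.8% of 42 reads. Of 23 measurements of the CREB, ATF, JUN and FOS group, 21 lay between 40% and 60% and 1 was unequal, that of ATF6 in D2. Over all genes 69.8% of measurements lay between these bounds and 20.1% were unequal.

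Among the 13 transcription factor families, NFI and RFX factors had the most measurements, 27, and the most unequal ones, 6 (22.2%, near the 20.1% over all genes). These were of RFX2, RFX4 and NFIB, with 2 on the paternal and 4 on the maternal side. RFX4, needed for midline brain development and cilia, had 48.5% of 101 reads in D2, 53.4% of 131 in D3, 35.8% of 53 in D4, 51.2% of 123 in D5, 31.3% of 48 in D6, 50% in D7, 45.7% in D8, 63.4% of 41 in D9 and 58.2% of 91 in D10. Daughters 4 and 6 were low and the others near or above balance, with a mean of 48.6% ± 10.1 (SD, n = 9).

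RFX2, a cilium factor, ranged more widely on fewer reads. Its share was 25% of 32 reads in D5 (13.3 to 42.1), 29.4% of 17 in D2, 33.3% in D4 and D7, 35.1% of 57 in D10 (24.0 to 48.1), 50% of 12 in D6, 57.1% of 84 in D3 and 72.7% of 22 in D8 (51.8 to 86.8). Thus 5 of 8 daughters were below and 2 above balance, and unequal daughters lay on both sides, with a mean of 42.0% ± 16.4 (SD, n = 8). RFX1 had 49.3% ± 11.5 (SD, n = 5) and no unequal measurement.

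RFXANK, the ankyrin repeat subunit of the RFX complex that activates MHC class II genes, binds no DNA by itself. It had 55.6% of 36 reads in D2, 50% of 68 in D3, 62.5% of 112 in D4, 64.9% of 114 in D5, 55.6% of 133 in D6, 63.0% of 54 in D9 and 34.8% of 46 in D10. Daughters 4 and 5, which share a labelled father, were unequal towards the paternal allele and D10 towards the maternal. The mean was 55.2% ± 10.4 (SD, n = 7), and 58.6% ± 5.76 (SD, n = 6) without D10.

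NFIB, a nuclear factor of glial and neuronal maturation, had 49.5% of 204 reads in D3, 62.5% of 96 in D4 (52.5 to 71.5), 54.0% of 137 in D5, 41.0% of 105 in D9 and 44.6% of 65 in D10. Its variance ratio of 2.98 was above that of RFX4 (2.29) and of RFX2 (2.38), so its smaller SD of 8.41 points rests on more reads.

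TCF25 was read almost only from the maternal allele in 1 daughter and lay between 40% and 60% in the others. Its share was 51.3% of 80 reads in D2, 45.5% of 55 in D3, 49.7% of 159 in D4, 44.1% of 297 in D5 (38.6 to 49.8, unequal), 55.9% of 188 in D6, 48.7% of 119 in D8 and 43.8% of 64 in D9. In D7 it was 2.04%, 1 of 49 reads (0.361 to 10.7). The mean was 42.6% ± 16.9 (SD, n = 8), and 48.4% ± 4.36 (SD, n = 7) without D7. On 1 side of TCF25, neither neighbour measured in D7 was unequal. SPIRE2, the next gene in the order of the RefSeq assembly T2T-MFA8v1.1, had 52.6% of 19 reads there, and CDK10, 7 genes away, 55% of 20. No gene on the other side, up to the chromosome end, reached 10 reads in D7.

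In D3, all 12 FOXRED2 reads were paternal, 100% (75.8 to 100). In the other daughters it had 46.2% in D2 and D4, 60.5% in D5, 57.1% in D6, 61.5% in D10 and 25% of 12 in D9. Its mean was 56.6% ± 22.9 (SD, n = 7), and 49.4% ± 13.8 (SD, n = 6) without D3. In D3 its neighbour EIF3D had 58.3% of 551 reads (54.1 to 62.3), also on the paternal side, MYH9 had 50% of 210 and APOL6 61.5% of 26. IFT27, 8 genes away, had 21.5% of 382, on the maternal side. MEF2BNB had 74.1% of 27 reads in D4 (55.3 to 86.8) and 38.9% to 56% in the other 4 daughters measured. FOXRED1 had 42.3%, 66.7% and 51.6% in D4, D6 and D10.

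**Figure D3:**
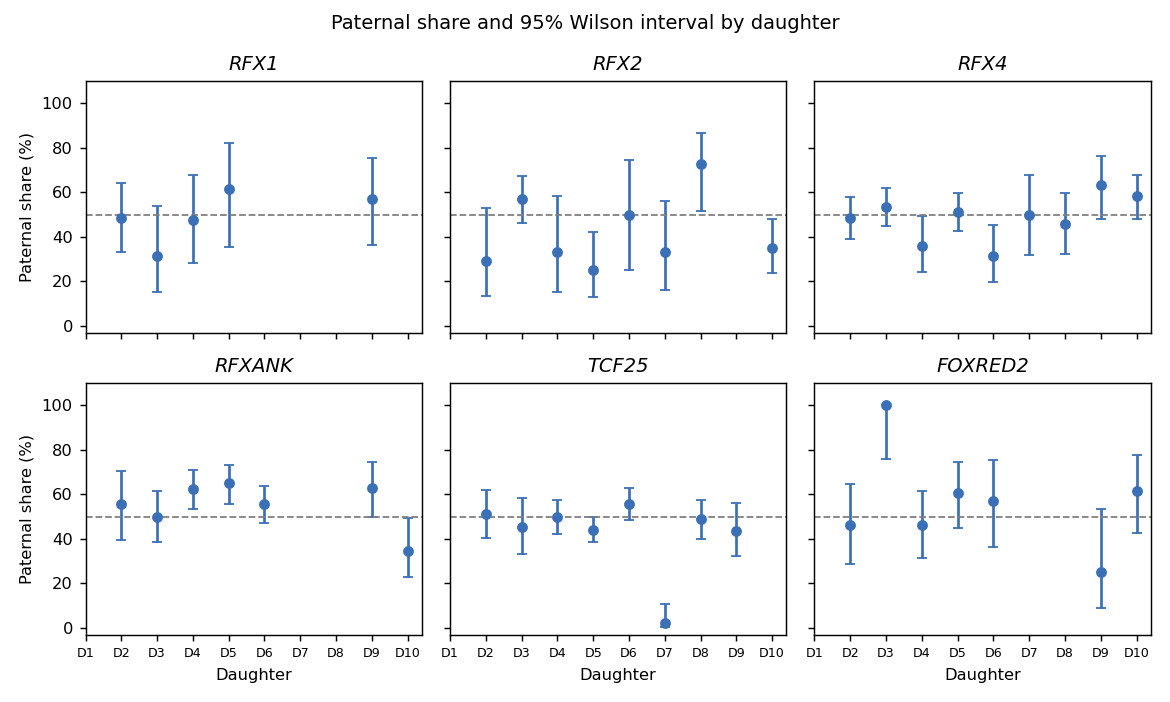
Paternal share (%) by daughter with 95% Wilson intervals for 3 RFX factors, the RFX complex subunit RFXANK, and TCF25 and FOXRED2, which share only a name stem with transcription factors. TCF25 in D7 (2.04%) and FOXRED2 in D3 (100%) stand apart, and RFX2 has intervals on both sides of 50%.

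Among forkhead factors, the X-linked FOXO4 alone had unequal measurements. Of 23 forkhead measurements 15 lay between 40% and 60% and 2 were unequal, both of FOXO4, beside 69.8% and 20.1% over all genes. FOXK2 had 55.4% of 65 reads in D4, 54.8% of 115 in D5, 54.7% of 159 in D6 and 45.5% of 77 in D10, a range of 9.93 points. FOXP2, a factor of motor and vocal circuits, had 57.1%, 56.5%, 53.7% and 56.5% in D5, D6, D7 and D10 and 33.3% of 15 reads in D8. Daughter 8 was the lowest, and her interval (15.2 to 58.3) includes 50%. FOXJ1, the main switch of motile cilia, had 42.9% of 63 reads in D3 and 30.4% of 23 in D6. FOXJ2 had 56.1% ± 10.3 (SD, n = 5).

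FOXO4, a target of insulin signalling, had the highest variance ratio of the 26 members with 3 or more daughters, 12.5, followed by TCF25 with 10.3. It had 50% of 32 reads in D4 (33.6 to 66.4), 96.6% of 29 in D5 (82.8 to 99.4), 37.9% of 29 in D6 (22.7 to 56.0) and 17.4% of 23 in D10 (6.98 to 37.1). Daughter 5 was high, D10 low, and the other two had intervals that include 50%. The other X-linked genes of the same daughters had median shares of 73.7%, 27.6%, 44.5% and 29.6%. In D10 and D6 FOXO4 therefore lay on the side of the X-linked median. In D5 it lay on the opposite side, where 0 of the 119 other X-linked genes reached 96.6% and 7 lay above 50%. Of its X-linked neighbours in D5, SLC7A3 had 10.7% of 28 reads, TEX11 18.2% of 11, MED12 16.4% of 55 and IL2RG, the closest, 40% of 20 (21.9 to 61.3). Its mean was 50.5% ± 33.5 (SD, n = 4), and 35.1% ± 16.5 (SD, n = 3) without D5. In D4 the FOXO4 share was below that of 104 of 105 other X-linked genes. The other two X-linked members, FOXP3 and KLF8, never reached 10 reads, with 4 and 3 reads in all.

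**Figure D4:**
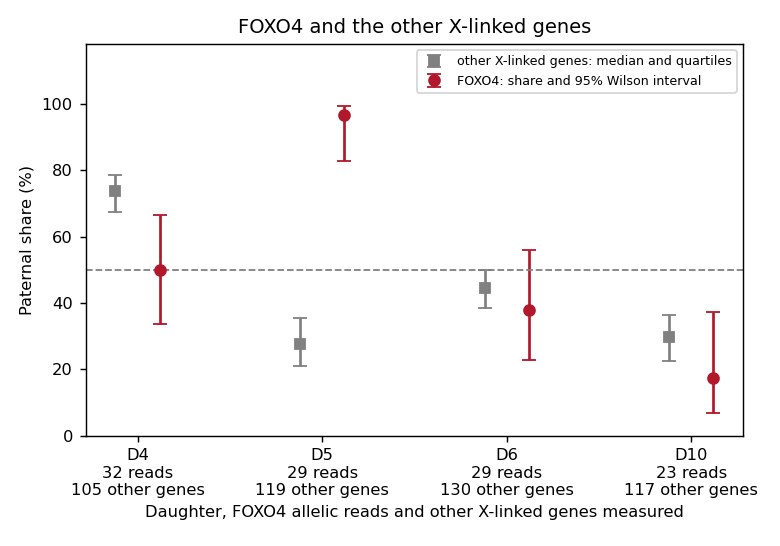
Paternal share (%) of FOXO4 with its 95% Wilson interval beside the median and quartiles of all other X-linked genes with 10 or more reads in the same daughter. In D5 FOXO4 is at 96.6% and the other X-linked genes have a median of 27.6%.

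Among nuclear receptors, which switch genes in response to hormones and lipids or act without a known ligand, 2 of 20 measurements were unequal. Both were of ESRRA, and over all genes 20.1% of measurements were unequal. ESRRA, a regulator of mitochondrial genes, had 42.7% of 89 reads in D2, 36.3% of 80 in D4 (26.6 to 47.2), 68.4% of 19 in D5, 82.4% of 17 in D6 (59.0 to 93.8) and 61.5% of 26 in D10. The 2 daughters with most reads lay below balance and the 3 with fewer above it. The mean of 58.3% ± 18.8 (SD, n = 5) and the share of pooled reads, 47.6%, therefore lay on opposite sides. NR3C2, the mineralocorticoid receptor, had 52.4% of 42, 62.2% of 37, 60% of 25 and 55.2% of 29 reads in D4, D6, D9 and D10. All 4 shares were above 50%, with a mean of 57.4% ± 4.46 (SD, n = 4), and each interval includes 50%. The orphan receptors NR2F6 and NR2C1 had 45.9% ± 11.6 (SD, n = 5) and 51.5% ± 9.16 (SD, n = 3).

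The HOX, MEIS and PBX group was measured through MEIS3 alone, with 6 of 7 measurements between 40% and 60% and 1 unequal. Over all genes the shares were 69.8% and 20.1%. MEIS3, a homeobox factor of hindbrain patterning, had 53.7% of 121 reads in D2, 48% of 75 in D4, 52.6% of 57 in D5, 41.1% of 163 in D6 (33.8 to 48.8), 47.1% in D7, 43.2% of 125 in D8 and 39.6% of 48 in D10. It was below 50% in 5 of 7 daughters, with a mean of 46.5% ± 5.48 (SD, n = 7) and a parental difference of log2 -0.21 ± 0.16 (SE, edgeR adjusted p = 1). TCF7L2, the Wnt effector that partners beta-catenin, lay between 42.1% and 57.5%, averaging 50.5% ± 6.58 (SD, n = 6). TCF3, a partner of tissue-specific helix-loop-helix factors, had 48.4% ± 7.96 (SD, n = 5). In the TCF group 10 of 11 measurements lay between 40% and 60% and 0 were unequal, beside 69.8% and 20.1% over all genes.

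Factors tied to cell types were read in few daughters. GATA3 had 21.1% of 19 reads in D3 (8.51 to 43.3), its only measurement, whereas TPH2 in the same daughter had 49.7% of 778. SOX10 had 50% of 32 reads in D6, 64.3% of 14 in D8 and 51.4% of 37 in D10. SOX8, also of oligodendrocytes, had 63.9% of 36 in D6 and 47.4% of 38 in D9, and SOX9, an astrocyte factor, 42.9% of 14 in D7. PAX5 had 71.4% of 21 reads in D4 (50.04 to 86.2). Both measurements of the PAX, LMX and GATA group, those of GATA3 and PAX5, were thus unequal. None of the 7 measurements of SOX factors was unequal, and the same held for the 7 of KLF, 3 of ETV and E2F, 5 of ZFHX and 4 of TBX and TEAD factors. All of these had under 50 reads. With 10 to 49 reads 14.3% of measurements of all genes were unequal, so such small counts set no family apart. Of the 5 ZFHX measurements 1 lay between 40% and 60%, beside 56.8% over all genes with 10 to 49 reads. ZFHX3, a factor of the circadian system, ranged from 33.3% of 21 reads in D6 to 70% of 10 in D10. KLF12 had 65.4%, 46.2% and 42.9% in D2, D7 and D9.

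Partners of these factors and other transcription factor families had shares of unequal measurements near the 20.1% of all genes. Of 28 cofactor and partner genes 15 had a row and 9 entered the test, with 0 higher from the paternal and 0 from the maternal allele (edgeR), and 13 of their 77 measurements (16.9%) were unequal. The corepressor TLE4 had 49.4% ± 6.29 (SD, n = 7), the receptor coactivator NCOA3 49.8% ± 10.6 (SD, n = 7) and the acetyltransferase EP300 49.9% ± 6.97 (SD, n = 6). Of 61 genes of other families 25 had a row and 9 were tested, with 0 called, and 18 of 91 measurements (19.8%) were unequal. STAT2 had 49.1% ± 9.51 (SD, n = 10), MITF 44.8% ± 6.43 (SD, n = 8), EPAS1 48.8% ± 4.51 and STAT3 49.4% ± 5.60 (SD, n = 7 each). Of 14 nuclear receptors without an NR-type symbol 5 had a row. PPARA, a fatty acid sensor, had 96% of 25 reads in D2 (80.5 to 99.3) and 50% to 60% in D4, D6 and D9. Of 22 immediate early genes only FOS was measured.

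Sample titles carry the prefix 10203 in 6 daughters and 10480 in 4, the only batch-like label. The parental difference of 0 of 17 members changed with prefix, beside 1 of 2981 genes (0.0335%, edgeR). At an unadjusted p under 0.05 there were also 0 of the 17 with edgeR, beside 106 of 2981 genes. By adjusted p with DESeq2 there were 0 of the 17, beside 0 of 2981 genes. NFIB had the smallest p, with 55.3% ± 6.60 (SD, n = 3) under 10203 and 42.8% ± 2.59 (SD, n = 2) under 10480 (edgeR adjusted p = 1). RFX4 had 44.1% ± 9.88 (SD, n = 5) and 54.3% ± 7.998 (SD, n = 4), also not passing. In 5 pairs of daughters that share a labelled parent, members lay on the same side of 50% in 18 of 36 comparisons, and in the other 40 pairs in 134 of 271 (49.4%), beside 49.5% and 50.02% over all genes.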

How the data were processed

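Stranded libraries of total RNA, depleted of ribosomal RNA, were read from both ends over 101 cycles per the labels' protocols and, per the submitters' processing notes, Novoalign was the aligner. The authors deposited whole-number counts per gene in 20 columns. The build is macFas5 per the file headers. Details of allele phasing and of strand in counting are not given in the sources used here.

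Missing values were set to 0 for the tests alone. Parental columns were compared over the 2981 genes that reached 10 reads in at least 5 daughters, with edgeR 4.0.16 (R 4.3.3, glmQLFit with a robust prior, daughter as block, library size summed over alleles), Benjamini-Hochberg threshold 0.05. DESeq2 1.42.0 was the other tool. In data simulated for this comparison over 2981 genes, edgeR called 72% of 100 genes set 2-fold apart, 100% of 100 set 4-fold apart, and 4 unchanged genes. Simulated counts followed the dispersion trend of these data, with the same parental ratio in all daughters. The percentages need not hold for genes that vary more between daughters, such as TCF25 with a variance ratio of 10.3. Shares carry 95% Wilson intervals (Python 3.11.15, SciPy 1.17.1). Symbols were matched to the RefSeq gene table of T2T-MFA8v1.1, another build, used for chromosome and gene order only; it matched 82 of 84 members.

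Members and lists were chosen with earlier results of these data known. Named members are up to 4 per family, those with 90% or more of 20 or more reads on 1 allele, the extremes of SD, the smallest p of each test, X-linked members and those matched by name only. List genes follow their own rule of up to 4 per list. One list gene that the rule names is not reported here. FOXJ1, FOS and the members named as under 10 reads were added after their values were seen, as was the exclusion of the genes matched by name only and of X-linked members, and leaving out each daughter from the named members' means. Alternatives were other scaling, read minimums, DESeq2, and leaving out each daughter.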

Additional observations from a re-analysis of the deposited data

Results flagged for a closer look

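Among 21 members with 4 to 9 daughters, 3 had a daughter far from the others by the gap to her nearest neighbour over the whole range. Chance alone flags about 1 in 20 groups. TCF25 in D7 had a paternal share of 2.04% of 49 reads, and its gap was 0.775 of the range over 8 daughters. FOXP2 in D8 had 33.3% of 15 reads, with a gap of 0.854 of the range over 5 daughters. FOXK2 in D10 had 45.5% of 77 reads, with a gap of 0.933 over 4 daughters that span 9.93 points. The gap takes no account of read numbers. The variance ratio, where 1 means no more than counting, was 10.3 in TCF25 but 0.968 in FOXP2 and 0.839 in FOXK2. How many of all genes this rule flags was not computed.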

How the results depend on the processing

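The counts of members called, 0 for the parental difference and 0 for title prefix, were also 0 under TMM scaling, DESeq2 and a minimum of 20 reads. For the parental difference they were also 0 without a read filter and without each daughter, with 9 to 84 members tested. Over all genes that test called 2 of 7227 without a filter, 1 of 2481 without D4 and 0 in its other alternatives. The prefix test called 1 of 2981 under TMM, 0 with DESeq2 and 0 with 20 or more reads. The share of near-balanced measurements rose from 65.9% to 87.5% with 50 or more reads, as it did over all genes (69.8% to 81.5%). The share of unequal measurements was 2.89% by the adjusted exact binomial test instead of 12.1% by the interval, beside 8.57% and 20.1% over all genes. The share beyond 90% on 1 allele was 0% with 50 or more reads, beside 1.41% over all genes. Without genes matched by name only it was 0.719%, beside 1.87% over all genes. Of 86 alternatives of these results 84 were counted as the same. For counts of members called this means that they stayed at 0. For percentages and medians it means a move of less than 1 SD between daughters. For the share beyond 90% this SD is 3.65 points, above the share itself of 1.73%, so no fall could count as a move. For the median share and the variance ratio the SD is of a related value computed within each daughter, not of the same statistic. Of 90 other read minimums, weightings and prefix subsets for mean shares of 31 named members, 87 moved by less than 1 SD. Of the rest, KLF12 went from 51.5% to 65.4% under prefix 10203 (1 daughter). The others were of ETV6, which stayed at 60% but has an SD of 0. The SD is that of the member's own daughters, so widely spread members can move far within it. With 20 or more reads ESRRA went from 58.3% to 46.8% and ZFHX3 from 52.5% to 38.7%, both within 1 SD. For members with 2 daughters, keeping 1 of them cannot move the mean by 1 SD. The count within 1 SD is thus no measure of stability. Leaving out 1 daughter moved the mean by less than 5 points in 18 of 26 named members and by up to 15.4 points in FOXO4. Depth limits most members: at 10 reads a share must lie 31.0 points from balance before its interval leaves out 50%.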
